A study of Mus musculus with 6 samples.

Results

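The node of Ranvier and paranode genes described here are 8 genes of the myelinated axon (Cntn1, Cntn2, Cntnap1, Cntnap2, Nfasc, Nrcam, Ank3 and Sptbn4) of 18194 named genes on 2 expression array types, called A and B. Members were taken by gene symbol from the platform annotation, which gave 25 probe sets, 12 on array type A and 13 on array type B. All 8 genes were found, 7 on array type A and 5 on array type B. A filter on dim probe sets left 21 of the 25 probe sets and 7 of the 8 genes, and only Cntnap1 had no probe set that passed.

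The node of Ranvier is the gap between myelin segments where sodium channels cluster and the action potential is renewed. Neurofascin and NrCAM bind ankyrin G there, and ankyrin G with beta-IV spectrin tethers the channels to the axon's cytoskeleton. On either side, at the paranode, axonal contactin 1 and Caspr bind a glial form of neurofascin and seal the myelin loops to the axon. Beyond the paranode, contactin 2 and Caspr2 hold potassium channels under the compact myelin.

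The samples were lumbar spinal cord of mice at postnatal day 27, segments L3 to L5, each made by pooling total RNA of 3 cords. The groups were Egr3-deficient, with 2 pools (pool 1, RNA 450, and pool 2, RNA 500), and wild type, with 1 pool (RNA 499), and every pool was hybridised once to each array type. The labels give no sex, strain or deleted part of Egr3, a zinc finger transcription factor gene, and state for pool 2 and the wild-type pool, but not for pool 1, a treatment type of acclimatization. Every comparison therefore set 2 pools against 1, both ratios share the wild-type pool, and nothing measures the spread between wild-type cords. Egr3 itself read 24.9 and 52.7 in Egr3-deficient pools 1 and 2, against 40.6 in wild type, on array type A, and 210 and 107, against 75.3, on array type B. Its level therefore did not check the labels, and each direction below rests on them. Neuron markers (11 of 11 genes on array type A) and myelin markers (7 of 7) passed the filter, so markers of the labelled tissue were present. Skeletal muscle markers passed it too (13 of 13), most of them only through their Egr3-deficient readings, so passing the filter does not identify the tissue.

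None of the 21 probe sets passed the test in either direction. The test was limma across all probe sets of an array type that passed the filter, with a Benjamini-Hochberg adjusted p threshold of 0.05, and it called 0.0663% of 13576 probe sets on array type A, 0% as lower, and 1.63% of 13507 on array type B. At an unadjusted p under 0.05, 4 of 9 member probe sets on array type A were lower and 0 higher, beside 12.7% and 7.93% of all probe sets. These 4 were of Cntn1 and Ank3 alone, and with 1 probe set per gene 2 of 6 genes were lower. Of the 12 member probe sets on array type B 1 was lower and 1 higher, beside 6.83% and 7.40%. The member probe sets lay on both sides of wild type, also within Cntn2, Nfasc and Ank3. Single probe sets of Cntn1, Nrcam and Ank3 lay furthest below wild type, and those of Sptbn4, Cntn2 and Nfasc furthest above it.

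**Figure D1:**
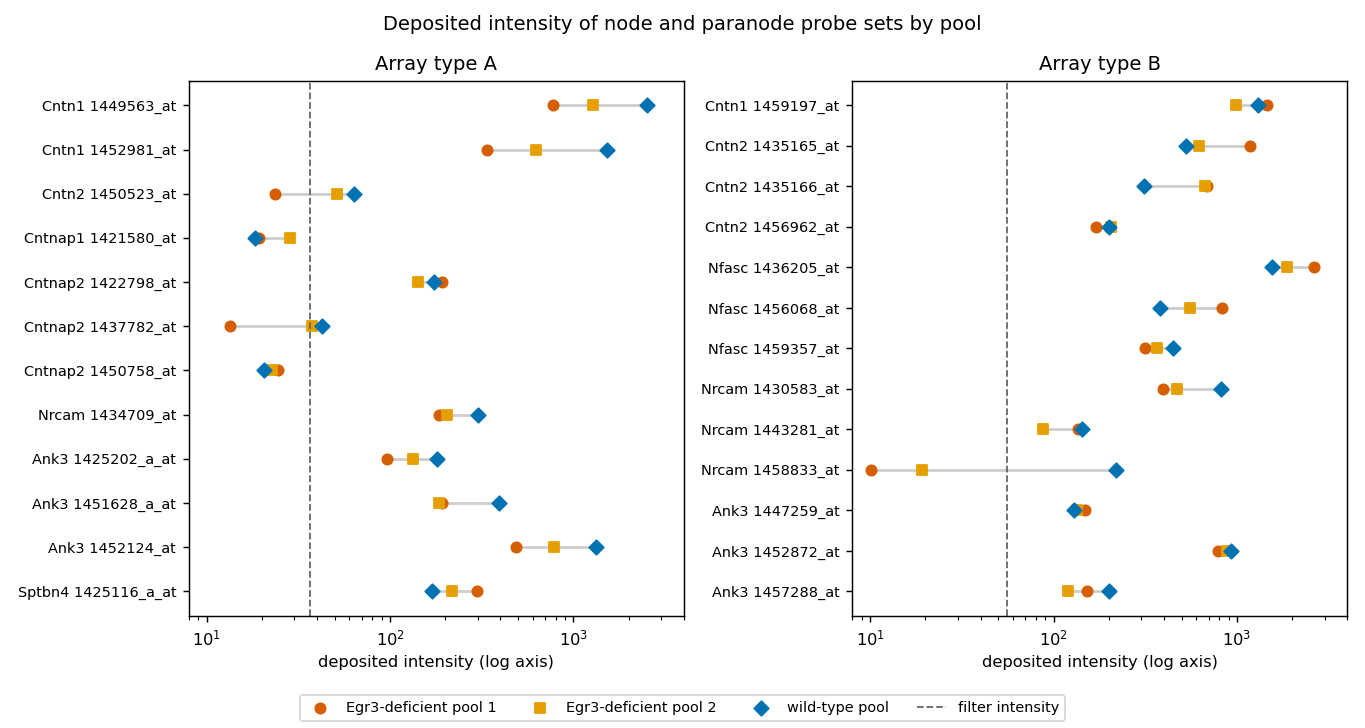
Deposited intensity of the 25 member probe sets (log axis) in Egr3-deficient pool 1 (circles), Egr3-deficient pool 2 (squares) and the wild-type pool (diamonds). The dashed line is the filter intensity, 36.7 on array type A and 55.9 on array type B. Both Cntn1 probe sets on array type A and Nrcam 1458833_at on array type B show the widest gaps below wild type.

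Cntn1 encodes contactin 1, the axonal glycolipid-anchored adhesion molecule of the paranode. Its probe set 1449563_at on array type A read 770 and 1273 in Egr3-deficient pools 1 and 2, against 2516 in wild type. After quantile normalization of log2(intensity + 16), the scale of every difference below, Egr3-deficient minus wild type was -1.84 in pool 1 and -1.07 in pool 2, averaging -1.45 (SE 0.33, limma adjusted p = 0.161). The other Cntn1 probe set there, 1452981_at, read 336 and 623, against 1521, and differed by -2.23 and -1.36, averaging -1.79 (SE 0.38, adjusted p = 0.161). Both pools were low on both probe sets, pool 1 more than pool 2, and these were the 2 of 9 member probe sets at least 2-fold below wild type in both pools, beside 4.35% of all probe sets on array type A.

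The Cntn1 calls depended on the normalization. Under median centring in its place both probe sets passed, with differences of -1.21 (adjusted p = 0.0202) and -1.58 (adjusted p = 0.00518). That setting raised calls across array type A, to 597 lower and 227 higher of 13576 probe sets, from 0 and 9 under quantile normalization. Over the other settings with a test, no adjusted p passed, and the highest was 0.337. The same RNA pools gave a smaller difference for Cntn1 on array type B. There 1459197_at read 1450 and 988 in the Egr3-deficient pools, against 1296 in wild type, so the deposited intensities overlapped, and after normalization they differed by -0.41 (SE 0.38, adjusted p = 0.690). Median centring made that difference positive, at 0.056. The sources used here do not give which part of the transcript each probe set reads.

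Cntnap1 encodes Caspr, the partner of contactin 1 in the paranodal axon membrane. Its probe set, 1421580_at on array type A, read 19.3 and 28.5 in Egr3-deficient pools 1 and 2, against 18.3 in wild type. All 3 readings lay below the filter intensity of 36.7, so the array gave little on this gene.

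Cntn2 and Cntnap2 encode contactin 2 (TAG-1) and Caspr2, which form the juxtaparanodal complex. Cntn2 was above wild type on array type B at 1435166_at, with 687 and 665 in Egr3-deficient pools 1 and 2, against 313 in wild type. Both pools differed by 1.01 on the log2 scale (SE 0.42, adjusted p = 0.243). It was the 1 of 12 member probe sets on array type B at least 2-fold above wild type in both pools, beside 4.27% of all probe sets. Its difference was positive under every setting tried, from 0.50 to 1.24. Settings that change only the filter or the options of the limma test cannot alter a log2 difference, here or for the genes below.

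The remaining Cntn2 probe sets did not repeat that difference. On array type B 1435165_at read 1181 and 623, against 528, with the excess mostly in pool 1 (0.51 on average, SE 0.42, adjusted p = 0.648). Also on B, 1456962_at read 171 and 205, against 201, so that wild type lay between the pools. The array type A probe set, 1450523_at, read 23.5 and 51.1, against 63.4, a log2 difference of -0.51 (adjusted p = 0.449). It was dim, with its pool 1 reading under the filter intensity of 36.7 and its mean level at percentile 44.1 of array type A. The probe sets of Cntn2 thus pointed in different directions in the same RNA, the array type A one near the filter.

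Cntnap2 was close to wild type. Its probe set above the filter, 1422798_at on array type A, read 191 and 142 in Egr3-deficient pools 1 and 2, against 173 in wild type, which differed by 0.012 (log2, SE 0.34, adjusted p = 0.987). Wild type lay between the pools, and the sign was positive in 9 of 12 settings and negative in 3. The positive count includes the filter and limma settings, which repeat the main value of 0.012 by construction. Of its dim probe sets, 1437782_at read 13.4 and 37.6, against 42.6, and 1450758_at read 24.4 and 22.6, against 20.5.

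**Figure D2:**
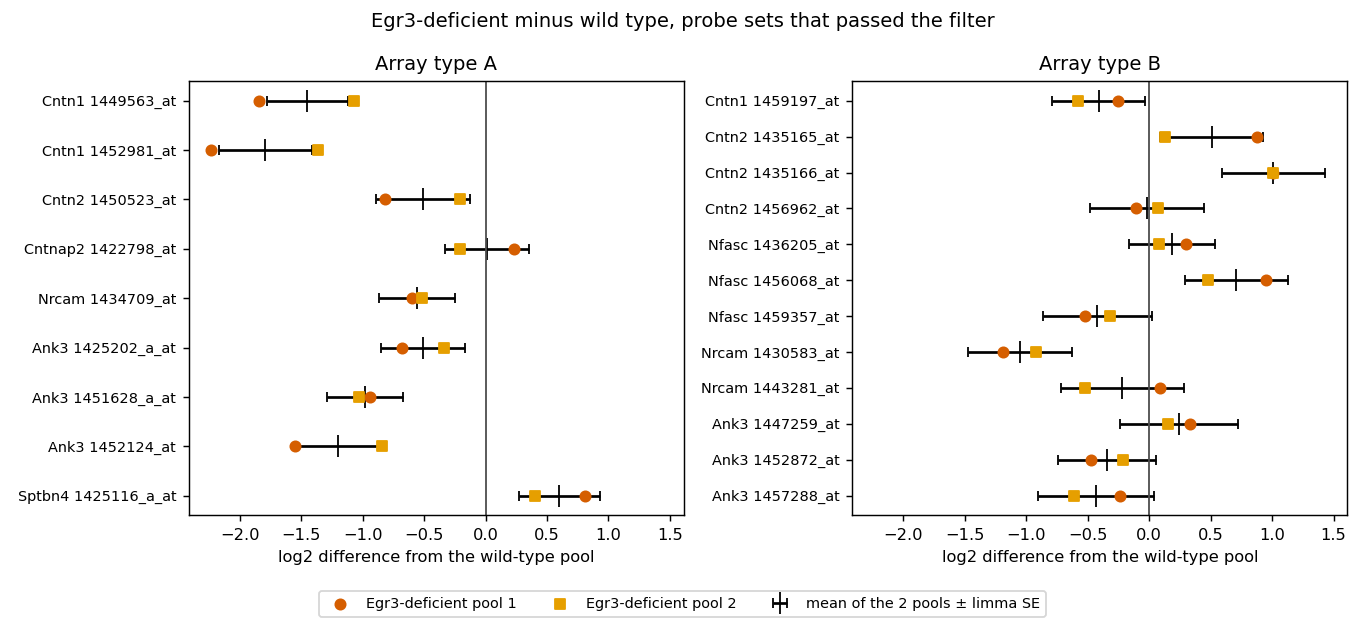
Log2 difference from the wild-type pool for the 9 member probe sets on array type A and 12 on array type B that passed the filter, as Egr3-deficient pool 1 (circles), pool 2 (squares) and their mean with the limma SE (tick and bar). On array type A 7 of 9 lie below 0 in both pools, led by Cntn1 at -1.79, and on array type B 5 of 12 lie below and 5 above.

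Nfasc encodes neurofascin, present as an axonal form at the node and a glial form at the paranode. It was measured on array type B alone. There 1456068_at read 830 and 551 in Egr3-deficient pools 1 and 2, against 378 in wild type (log2 difference 0.71, SE 0.42, adjusted p = 0.470). The brighter 1436205_at read 2618 and 1883, against 1545, but quantile normalization reduced its log2 difference to 0.19 (SE 0.35, adjusted p = 0.883). Both pools were above wild type on these probe sets, pool 1 the higher. A probe set of the same gene, 1459357_at, pointed down, with 317 and 368, against 445, or -0.42 in log2 (SE 0.44, adjusted p = 0.735). Whether the probe sets separate the axonal from the glial form is not stated there.

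Nrcam encodes NrCAM, an ankyrin-binding adhesion molecule of the node. Its array type B probe set 1430583_at read 397 and 471 in Egr3-deficient pools 1 and 2, against 813 in wild type, a log2 difference of -1.05 (SE 0.42, adjusted p = 0.210). Probe set 1434709_at on array type A read 185 and 204, against 301, or -0.56 in log2 (SE 0.31, adjusted p = 0.324). Both Egr3-deficient pools were low on both array types, and the difference kept its sign under every setting tried, from -1.46 to -0.72 on B and from -0.60 to -0.47 on A.

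The widest gap of any member was also in Nrcam. Probe set 1458833_at on array type B read 10.1 and 19.1 in Egr3-deficient pools 1 and 2, against 218 in wild type, a log2 difference of -2.87. Its mean lay below the filter, and both Egr3-deficient readings were under the filter intensity of 55.9. Tested with no filter, over 22511 probe sets, it did not pass (SE 0.77, adjusted p = 0.455). A further probe set, 1443281_at, read 136 and 87.9, against 142, a log2 difference of -0.22 (adjusted p = 0.914) with the normalized values on either side of wild type.

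Ank3 encodes ankyrin G, the adaptor that holds sodium channels, neurofascin and NrCAM at the node. All 3 of its probe sets on array type A were below wild type in both pools. Its brightest, 1452124_at, read 487 and 787 in Egr3-deficient pools 1 and 2, against 1333 in wild type (log2 difference -1.20, SE 0.34, adjusted p = 0.162). Probe set 1451628_a_at read 192 and 184, against 395 (-0.98, SE 0.31, adjusted p = 0.173), with the pools close together, and 1425202_a_at read 96.2 and 134, against 180 (-0.51, SE 0.34). None of the 3 changed sign under any setting tried.

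Ank3 differed less on array type B. There 1452872_at read 791 and 887 in Egr3-deficient pools 1 and 2, against 924 in wild type (log2 difference -0.34, SE 0.40, adjusted p = 0.777). Probe set 1457288_at read 153 and 120, against 200 (-0.43, adjusted p = 0.758), while 1447259_at read 149 and 134, against 129 (0.24, adjusted p = 0.896). As with Cntn1, the same pools gave the larger differences on array type A. The array types were normalized separately, and this contrast was not tested.

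Sptbn4 encodes beta-IV spectrin, which links ankyrin G to actin at nodes and axon initial segments. Its probe set, 1425116_a_at on array type A, read 297 and 219 in Egr3-deficient pools 1 and 2, against 169 in wild type, a log2 difference of 0.60 (SE 0.33, adjusted p = 0.326). Both pools were above wild type, pool 1 the higher, and the difference stayed positive under every setting tried, from 0.39 to 0.81. It was the only member probe set on array type A that passed the filter and lay above wild type in both pools.

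Because Egr3 binds DNA, start sites of the genes at the low and high ends on array type A are shown, Cntn1 and Sptbn4, each by its most upstream RefSeq window. Windows run from 250 bases before to 50 after a start (RefSeq, GRCm38.p6), and 6 of the 8 members had them, 13 in all; Cntnap1 and Ank3 did not match. Capitals mark GCGNGGGCG, a form of the EGR family's recognition motif, searched on both strands. The Cntn1 window is chr15:92050915-92051214 on the plus strand and the Sptbn4 window chr7:27446540-27446839 on the minus strand, both written along the transcribed direction.
Cntn1: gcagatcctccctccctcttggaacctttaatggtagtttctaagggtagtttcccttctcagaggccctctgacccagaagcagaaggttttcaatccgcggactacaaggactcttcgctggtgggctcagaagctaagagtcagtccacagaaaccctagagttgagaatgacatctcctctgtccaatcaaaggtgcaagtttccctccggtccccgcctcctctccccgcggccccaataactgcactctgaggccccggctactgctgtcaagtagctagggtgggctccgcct
Sptbn4: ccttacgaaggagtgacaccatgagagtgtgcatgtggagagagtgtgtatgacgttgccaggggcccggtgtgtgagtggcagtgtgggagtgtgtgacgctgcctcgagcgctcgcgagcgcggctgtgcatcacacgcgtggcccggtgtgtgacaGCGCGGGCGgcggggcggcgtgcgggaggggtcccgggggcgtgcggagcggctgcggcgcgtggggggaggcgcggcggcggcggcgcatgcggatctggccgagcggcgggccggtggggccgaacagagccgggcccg
The motif was in 3 of the 13 member windows, all of Sptbn4, and in 5.55% of all 32851 windows. The form GCGTGGGCG was in 0 of the 13 and in 0.612% of all. Each Sptbn4 window with a match also held a GC box (GGGCGG) overlapping it, and these windows were rich in G and C, at 70.3% to 73.7%, beside a median of 52.7% over all windows. A match is a string of letters and no measure of binding.

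Counted over probe sets, the members lay below wild type on array type A more than above it. Of 9 there, 7 were below in both Egr3-deficient pools and 1 above, beside 34.8% below and 47.9% above of all probe sets that passed the filter. Of 12 on array type B 5 were below and 5 above, beside 36.6% and 38.9%, and 0 of 12 were at least 2-fold below in both pools, beside 1.80%. None of the 9 on array type A was at least 2-fold above in both, beside 1.20%. Probe sets of 1 gene share a transcript and are not independent.

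With each gene represented by its brightest probe set, the median log2 difference of 6 member genes on array type A was -0.54 (-0.71 in pool 1 and -0.36 in pool 2), where all probe sets had a median of 0.11. Of these genes 4 were below wild type in both pools and 1 above. The 5 member genes on array type B had a median of -0.34, beside 6.3e-05 for all probe sets, with 3 below and 2 above. That median turned to 0.056 under median centring, where all probe sets had 0.083.

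**Figure D3:**
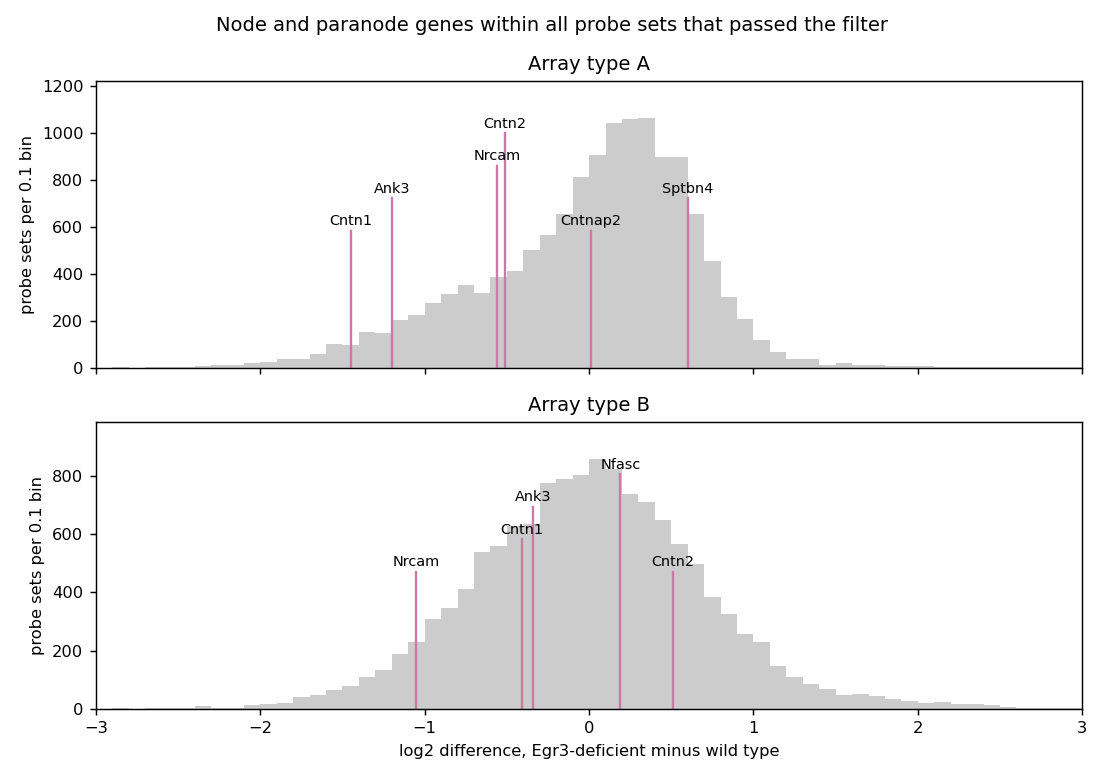
Number of probe sets per 0.1 bin of log2 difference, Egr3-deficient minus wild type, over all 13576 (array type A) and 13507 (array type B) probe sets that passed the filter, with lines at each member gene's brightest probe set; line height has no meaning. On array type A Cntn1 (-1.45) and Ank3 (-1.20) lie in the lower tail and Sptbn4 (0.60) in the upper part, and on array type B only Nrcam (-1.05) lies far from the centre.

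Other axonal genes of the node and its flanks, a list of 25 that covers sodium and potassium channels, spectrins and scaffolds, lay mostly below wild type, and 1 of them passed the test, on array type B. Of the list, 16 passed the filter on array type A, of which 12 were below wild type in both pools and 4 above, 0 were called and 8 were lower at an unadjusted p under 0.05, beside 34.8%, 47.9%, 0.0663% and 12.7% of all probe sets. Their median was -0.75, and 12 were below under all 3 other scalings too. Of 18 that passed on array type B, 13 were below and 5 above, beside 36.6% and 38.9% of all probe sets, and the median was -0.55.

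Sodium channel genes lay on both sides of wild type. Scn8a, which encodes the main sodium channel of mature nodes, read 298 and 309 in Egr3-deficient pools 1 and 2, against 446 in wild type, on A (log2 difference -0.52, adjusted p = 0.330). It read 992 and 966, against 714, on B (0.24, adjusted p = 0.864), so these 2 probe sets pointed in different directions; it is outside the rule for named genes and was chosen after its values were seen. Scn1a, a voltage-gated sodium channel gene, read 160 and 279 in Egr3-deficient pools 1 and 2, against 659 in wild type, on array type A (log2 difference -1.56, adjusted p = 0.161). Scn2a, another sodium channel gene, read 36.2 and 70.7, against 181 (-1.46, adjusted p = 0.161). Slc8a1, a sodium-calcium exchanger gene, read 58.1 and 109, against 450 (-2.22, adjusted p = 0.141) on A and 305 and 709, against 1166 (-1.50, adjusted p = 0.0566) on B. Next on A was the scaffold gene Mpdz, when genes are ordered by the smaller of the 2 pool differences, at -1.13 and -1.06. Above wild type on A were Kcnk2, a potassium channel gene, at 0.34, the scaffold gene Dlg4 at 0.73, Adam23 at 0.19 and the potassium channel subunit gene Kcnab2 at 0.23, none past the threshold. The excess lay mostly in pool 1 for Dlg4 (1.22 in pool 1 and 0.24 in pool 2) and Kcnab2 (0.46 and 0.013). Kcnab2 read 571 and 401, against 402, so its deposited pool 2 value was not above wild type.

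Kcnq3 was the 1 gene of the list that passed. It encodes a subunit of the nodal M-type potassium channel and on array type B read 256 and 107 in Egr3-deficient pools 1 and 2, against 564 in wild type. It fell by 1.75 on the log2 scale (SE 0.47, limma adjusted p = 0.0380), with -1.17 in pool 1 and -2.34 in pool 2, where 0.607% of all probe sets were called lower. The call was lost in 6 of 9 other settings with a test, and the adjusted p ran from 0.00565 to 0.474 over them. Also below on B were Ank2, an ankyrin gene of the paranodal axon (-1.28 in pool 1 and -0.71 in pool 2), and Kcna2, a juxtaparanodal potassium channel gene (-0.86). Above it were Lgi3 (0.70, adjusted p = 0.284), the sodium channel beta subunit genes Scn4b (0.50) and Scn2b (0.36), and Adam23 (0.34).

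Glial and matrix genes of the node, a list of 20, were mixed. Of these, 16 passed on array type A, 7 below wild type in both pools and 5 above, beside 34.8% and 47.9% of all probe sets, with a median of 0.040 and 0 called. Omg, a myelin glycoprotein gene, read 170 and 337 in Egr3-deficient pools 1 and 2, against 906 in wild type (log2 difference -1.89, adjusted p = 0.161). Ugt8a, whose enzyme makes the galactolipids that paranodes need, read 1666 and 1776, against 4163 (-1.37, adjusted p = 0.112). The nodal matrix proteoglycan gene Vcan (-1.21) and Anln (-1.15) were next. Ncan, a proteoglycan gene, lay above at 0.39, with Gal3st1, which sulfates those galactolipids, at 0.48, Tnc, a matrix glycoprotein gene, at 0.64, and the dystroglycan gene Dag1 at 0.27.

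Of the glial and matrix genes, 8 passed on array type B, 3 below and 3 above, beside 36.6% and 38.9% of all probe sets, with a median of -0.13 and 0 called. Tnr, a perinodal matrix glycoprotein gene, read 116 and 282 in Egr3-deficient pools 1 and 2, against 446 in wild type (log2 difference -1.24, adjusted p = 0.177). Epb41l2 (-0.42) and Hapln1, a matrix link protein gene (-0.53), were below in both pools, the pool 2 differences being -0.064 and -0.0063. Vcan lay above wild type there at 0.87 (SE 0.69, limma adjusted p = 0.631), opposite to array type A. On B it read 76.6 and 96.0, against 48.2, so its wild-type reading was under the filter intensity of 55.9. On A it read 32.9 and 40.7, against 114, with both Egr3-deficient readings dim and pool 1 under 36.7. Opalin, an oligodendrocyte membrane protein gene, lay above wild type on B at 0.50, and Ncan at 0.31.

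**Figure D4:**
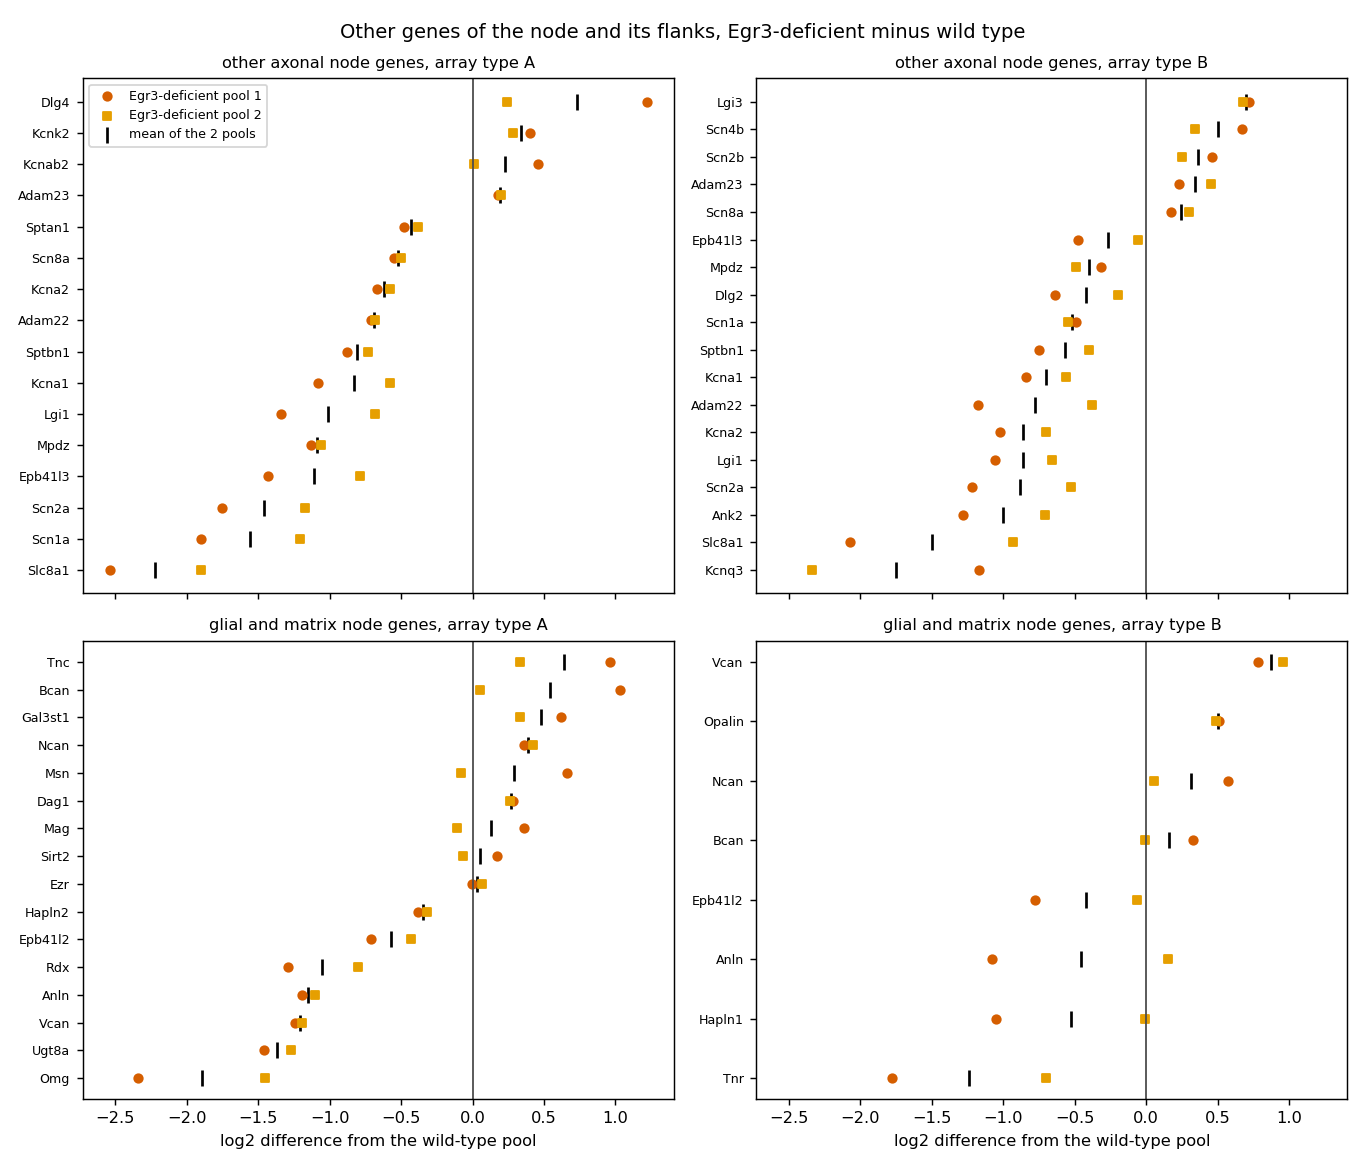
Log2 difference from the wild-type pool for the brightest probe set of each other axonal gene (top) and each glial or matrix gene (bottom) on both array types, as Egr3-deficient pool 1 (circles), pool 2 (squares) and their mean (tick). Of the axonal genes 12 of 16 on array type A and 13 of 18 on array type B lie below 0 in both pools, and the glial and matrix genes lie on both sides.

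In bulk cord, fewer cells of a type and less RNA per cell cannot be told apart. For the marker counts below, the shares of all probe sets below and above wild type in both pools were 34.8% and 47.9% on array type A. On array type B they were 36.6% and 38.9%. On array type A the neuron marker list had 6 of 11 genes below wild type in both pools and 3 above. Its summed deposited intensity was 17160 and 18660 in Egr3-deficient pools 1 and 2, against 21806 in wild type. The myelin list had 4 of 7 below and 1 above, with sums of 24012 and 31130, against 38239. The neuron sums on array type B were 21959 and 23292, against 20632, and the myelin sums 14382 and 11268, against 10350. The normalized log2 differences of these lists on B were mostly below 0. Of 5 neuron genes 3 were below wild type in both pools and 1 above (median -0.41), of 2 myelin genes 1 was below and 0 above (-0.83), and of 4 astrocyte genes 3 were below and 0 above (-0.69). Astrocyte sums were 7710 and 7538, against 8596, on A and 11946 and 12440, against 12317, on B. Of these lists, 1 myelin gene (Ermn) and 2 astrocyte genes (Slc1a2 and Aqp4) were called lower on B, where 0.607% of all probe sets were. Slc1a2 read 3513 and 7489 there, against 7384, so its deposited pool 2 value was not below wild type. Its log2 difference on A was 0.050. Aqp4 read 356 and 434 on B, against 1239, and its log2 difference on A was -1.74, not called. Skeletal muscle markers were above wild type in both pools for 13 of 13 genes on A, with sums of 5872 and 7231, against 1053. Of these genes 7 were called, beside 0.0663% of all probe sets. Only Acta1 (39.7) and Pvalb (848) had wild-type readings above the filter intensity of 36.7. The others passed through their Egr3-deficient readings. Pvalb, at 1354 and 1487, against 848, made up most of the wild-type sum. On B 2 of 2 were above wild type, 0 called, with sums of 222 and 340, against 197. Schwann cell and nerve root markers were above wild type for 4 of 4 on A by normalized log2 difference. Their deposited sums were 6125 and 8906, against 6338, so the pool 1 sum was below wild type. Pmp22, which made up most of each sum, read 5476 and 7943, against 5769. The 1 measured on B, Pmp2, read 1723 and 1293, against 2153. No listed marker had a deposited value of 0. The part of these shifts in the member differences was not tested.

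As a sign of RNA quality, Gapdh control probe sets gave a 3'/5' ratio of 0.858 and 0.975 in Egr3-deficient pools 1 and 2, against 0.734 in wild type, on A, and 0.923 and 0.805, against 0.755, on B. The actin ratio was 1.37 and 1.48, against 1.36, on A and 1.40 and 1.47, against 1.52, on B. Its part in the differences was not tested either. Pool 2 and the wild-type pool carry the acclimatization remark, so the pool 2 values above are the comparison between pools labelled alike, 1 against 1 and with no test.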

How the data were processed

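Total RNA pools of mouse lumbar cord were measured on 2 array types, 1 array per pool and type. The authors deposited linear intensity values, 1 per probe set; their trimmed means (2% from each tail) were close to 150 on every array, and the sources used here do not give the program that summarised the probes. Symbols came from the platform annotation, updated by gene identifier through the RefSeq gene table (GRCm38.p6), leaving unnamed any with more than 1. Array types were kept apart, without its 64 control probe sets: log2(intensity + 16), quantile normalization over 3 arrays, and a filter at the 40th percentile of mean log2. Limma 3.58.1 in R 4.3.3 (eBayes with intensity trend) compared 2 pools with 1, so 1 residual degree of freedom and the prior across probe sets (6.54 degrees of freedom on A, 52.3 on B) set the SE; wild type was assumed to vary alike. Labels do not say whether pools share animals or days. The p-values rest on the spread between the 2 Egr3-deficient pools, taken mostly across probe sets through the prior. They therefore say little on how far the pools differed for 1 probe set. Cntn2 1435166_at and 1435165_at, with SDs between pools of 0.0060 and 0.53, both had an SE of 0.42. The number of arrays limits the precision. The fit was tested on simulated data.

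A gene is represented by its brightest probe set above the filter. All member probe sets are given; of the other node lists, genes past the threshold and, per array type, up to 4 above and 4 below wild type with the largest smaller-of-2 ratio are named. Members and lists were chosen with earlier results of these data known. Genes of like pattern were not sought, since 3 arrays cannot rank patterns.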

Additional observations from a re-analysis of the deposited data

How the results depend on the processing

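Of the member probe sets, 2 of Cntn1 on array type A passed under median centring and none under any other setting, so that 2 member probe sets were called there. Settings that change only the filter or the eBayes options leave every log2 difference of a probe set as in the main analysis, so they do not test its sign. Under the other settings small differences changed sign. Under median centring these were Ank3 1452872_at (0.031), Cntn1 1459197_at (0.056), Cntn2 1456962_at (0.076) and the median of member genes on array type B (0.056). Without quantile normalization Cntnap2 1422798_at was at -0.062. On scaling by the 100 probe sets that the array types share, a setting added with earlier results known, Cntnap2 1422798_at was at -0.061, Ank3 1447259_at at -0.46 and Nfasc 1436205_at at -0.058; there, all probe sets on B had a median of -0.66 and the members -0.69. The member median on B was -0.11 without quantile normalization, -0.18 over all probe sets of a gene, and -0.24 to -0.20 leaving out either Egr3-deficient pool; on A it ran from -0.72 to -0.35. Leaving out pool 1 or pool 2, Cntn2 1456962_at was at 0.069 or -0.10, Cntnap2 1422798_at at -0.20 or 0.23 and Nrcam 1443281_at at -0.50 or 0.087.

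Counts over all probe sets moved more. On array type A, main counts of 9 higher and 0 lower became 227 and 597 under median centring, 0 higher with no filter or on shared scaling, and 1 lower without quantile normalization, at a pseudocount of 64 or with robust eBayes. On B, 138 higher and 82 lower became 2 and 0 without quantile normalization, 0 and 0 with no filter, without trend or on shared scaling. Lower calls on B were 22 under median centring, 47 and 181 at pseudocounts of 1 and 64, 195 under a 60th percentile filter and 170 with robust eBayes. The cause was not tested. Dim probe sets, among them Cntnap1, limit what can be read. No paired analysis was possible because the labels pair no pools and wild type has 1.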
